A study of Homo sapiens with 30 samples.

Results

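The transcripts of 10 genes of the insulin-like growth factor (IGF) pathway were followed through 30 RNA-seq libraries of 5637 cells, a line established from a human bladder carcinoma. They comprised 6 secreted IGF-binding proteins (IGFBP2, IGFBP3, IGFBP4, IGFBP5, IGFBP6 and IGFBP7), the receptors IGF1R and IGF2R, and the receptor substrates IRS1 and IRS2. The 10 genes were taken by symbol, or by Ensembl identifier, from tables of 60612 genes (knockout) and 56303 genes (overexpression and knockdown). They were chosen by pathway membership with the values of 1 knockout (KO1 against WT1) in view, in which IGFBP5 had the lowest fitted fold change of the 17865 genes tested. That contrast is therefore described here without a test. Earlier results of these data were also known at that choice, so the p-values of the other comparisons may not be free of it.

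The knockout libraries held 2 groups of RBPMS-KO cells, KO1 and KO2, and 2 groups labelled WT, WT1 and WT2. The study's text calls the controls wild-type in one place and sgCtrl in others, so whether they carried a control guide is not settled, and effects of editing itself cannot be told apart from loss of RBPMS. RBPMS encodes an RNA-binding protein that regulates splicing, and the study describes the knockouts as made with different guide RNAs and expanded from single clones. The overexpression libraries held Vector, ANKRD10-1 and ANKRD10-2 cells, and the knockdown libraries held siNC, siANKRD10-1 and siANKRD10-2 cells, where the suffixes name 2 splice variants of ANKRD10, an ankyrin repeat gene. Each of the 10 groups had 3 libraries. All groups were 5637 cells grown in RPMI medium with 10% fetal bovine serum, and the study transfected siRNA and plasmids with Lipofectamine. The study's text places the ANKRD10-1 and siANKRD10-2 cells on an RBPMS knockout background and the ANKRD10-2 and siANKRD10-1 cells on an unedited one, while the sample labels do not give the background and each table has 1 control group. A background effect and a variant effect therefore cannot be told apart in those comparisons. The labels do not say whether replicates were separate cultures, so p-values measure the spread between these libraries, which may be technical.

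IGF1 and IGF2 are secreted ligands that signal through IGF1R, a receptor tyrosine kinase. IGF-binding proteins hold most extracellular ligand, and depending on context they restrain or extend its action. IGF2R (the cation-independent mannose 6-phosphate receptor) takes up IGF2 for lysosomal degradation, and IRS1 and IRS2 carry the signal of the active IGF1 and insulin receptors to PI3-kinase and AKT.

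Library totals ranged from 44593108 to 69723937 counts in the knockout table, from 31736779 to 47493499 in the overexpression table and from 28511029 to 32784584 in the knockdown table. Among genes with 1 to 99 counts, 64.0 to 65.0% of values were even in the overexpression table and 66.8 to 72.1% in the knockdown table, against 46.9 to 48.5% in the knockout table. All 10 epithelial markers examined (EPCAM, CDH1, KRT5, KRT7, KRT8, KRT18, KRT19, TP63, GATA3 and PPARG) were above 3 counts in every group. The summed endothelial markers (PECAM1, VWF and CDH5) were at 1.12 to 3.06 CPM over all libraries. RBPMS went from 40.4 ± 1.66 (SD, n = 3) CPM (counts scaled to a library size of 1e6) in WT1 to 14.9 ± 0.505 in KO1, and from 43.1 ± 0.937 in WT2 to 20.3 ± 1.23 in KO2 (log2 fold change -1.09, edgeR adjusted p = 5.1e-08). It lay between 3.57 and 6.28 CPM in every overexpression and knockdown library, controls included. Gene-level ANKRD10, which does not separate the splice variants, went from 194.6 ± 4.6 CPM in WT1 to 86.3 ± 4.2 in KO1. In the other pair it went from 190.3 ± 5.8 CPM in WT2 to 112.6 ± 4.2 in KO2 (log2 fold change -0.76, edgeR adjusted p = 4.0e-08). It was 1.59-fold of Vector in ANKRD10-1 and 1.33-fold in ANKRD10-2. It was 0.845-fold of siNC in siANKRD10-1 and 0.841-fold in siANKRD10-2. These 4 differences from Vector or siNC passed the test (edgeR adjusted p = 4.4e-09, 8.3e-05, 0.0159 and 0.00121).

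Promoter windows are shown for the members on which the comparisons below turn. IGFBP2 (chr2:216632828-216664436, plus strand) and IGFBP5 (chr2:216672105-216695525, minus strand) converge on each other and are separated by 7668 bases, and both were lower in each knockout. IGFBP6 (chr12:53097436-53102345, plus strand) and IRS2 (chr13:109752698-109786568, minus strand) are on different chromosomes and both rose in ANKRD10-2 and fell in both siRNA groups. IGFBP3 (chr7:45912245-45921874, minus strand) had opposite directions in the 2 knockouts, and IGF2R (chr6:159969099-160113507, plus strand) is the member with most E-boxes. IRS2 lies 1091971 bases from ANKRD10 (chr13:110878540-110915069). RefSeq (GRCh38.p14) gave windows of 250 bases before to 50 after a start, 5′ to 3′, for 9 members (all but IGFBP7), with 3 starts for IGFBP2, of which the 2 nearest the 5′ end of the gene are shown. Capitals mark matches on either strand to the E-box CACGTG, the GC box GGGCGG, the CCAAT box CCAAT, the TATA box TATAAA and the AP-1 site TGANTCA, with overlapping matches counted separately.
IGFBP2, chr2:216632578-216632877, strand plus: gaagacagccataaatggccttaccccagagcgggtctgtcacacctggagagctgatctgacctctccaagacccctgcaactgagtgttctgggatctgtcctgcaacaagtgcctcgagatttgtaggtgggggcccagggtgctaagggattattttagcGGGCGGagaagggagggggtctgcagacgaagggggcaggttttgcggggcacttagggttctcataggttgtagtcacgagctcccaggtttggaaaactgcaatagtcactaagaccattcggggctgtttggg
IGFBP2, chr2:216633170-216633469, strand plus: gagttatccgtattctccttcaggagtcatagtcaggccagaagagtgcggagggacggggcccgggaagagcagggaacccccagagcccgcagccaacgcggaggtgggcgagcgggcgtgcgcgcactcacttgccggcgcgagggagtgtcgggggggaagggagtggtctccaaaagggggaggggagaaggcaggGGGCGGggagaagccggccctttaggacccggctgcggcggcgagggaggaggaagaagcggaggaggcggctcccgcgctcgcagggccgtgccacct
IGFBP3, chr7:45921223-45921522, strand minus: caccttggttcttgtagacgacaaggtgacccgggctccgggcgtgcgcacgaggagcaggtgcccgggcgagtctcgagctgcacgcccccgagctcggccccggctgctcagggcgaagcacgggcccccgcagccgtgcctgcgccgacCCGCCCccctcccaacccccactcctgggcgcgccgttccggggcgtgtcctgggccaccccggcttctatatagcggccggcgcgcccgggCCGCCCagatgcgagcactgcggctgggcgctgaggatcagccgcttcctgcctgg
IGFBP5, chr2:216695500-216695799, strand minus: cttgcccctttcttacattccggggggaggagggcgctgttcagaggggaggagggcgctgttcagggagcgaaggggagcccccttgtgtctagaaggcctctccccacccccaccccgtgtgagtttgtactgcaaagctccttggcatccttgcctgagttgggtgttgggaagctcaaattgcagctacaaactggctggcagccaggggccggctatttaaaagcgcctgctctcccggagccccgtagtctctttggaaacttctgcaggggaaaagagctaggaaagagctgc
IGFBP6, chr12:53097417-53097716, strand plus: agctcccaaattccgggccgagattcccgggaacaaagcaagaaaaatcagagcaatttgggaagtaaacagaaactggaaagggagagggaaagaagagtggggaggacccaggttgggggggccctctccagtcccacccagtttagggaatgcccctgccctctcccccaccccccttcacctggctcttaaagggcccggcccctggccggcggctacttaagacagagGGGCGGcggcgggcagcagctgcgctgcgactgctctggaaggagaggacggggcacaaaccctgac
IRS2, chr13:109786534-109786833, strand minus: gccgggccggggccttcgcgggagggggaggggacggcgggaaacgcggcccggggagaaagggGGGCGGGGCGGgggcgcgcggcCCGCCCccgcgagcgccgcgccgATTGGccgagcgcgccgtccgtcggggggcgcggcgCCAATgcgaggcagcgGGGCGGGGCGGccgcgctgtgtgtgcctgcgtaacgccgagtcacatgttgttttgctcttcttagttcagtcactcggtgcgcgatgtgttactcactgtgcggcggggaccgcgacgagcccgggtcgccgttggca
IGF2R, chr6:159968832-159969131, strand plus: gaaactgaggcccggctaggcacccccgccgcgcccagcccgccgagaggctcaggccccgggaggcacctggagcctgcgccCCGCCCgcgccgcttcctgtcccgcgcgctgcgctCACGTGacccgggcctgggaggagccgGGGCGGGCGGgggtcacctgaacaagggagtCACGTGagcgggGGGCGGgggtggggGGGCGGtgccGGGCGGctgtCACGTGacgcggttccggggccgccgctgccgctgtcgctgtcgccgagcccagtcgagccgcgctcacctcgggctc

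The GC box was present in 9 of the 11 windows of these 9 members, and in 45.0% of all 35116 RefSeq promoter windows, and the IGFBP5 window held no match to any of the 5 motifs. IRS2 had 5 GC boxes and 2 CCAAT boxes, and CCAAT was found in 34.6% of all windows. CACGTG, the E-box bound by MYC family proteins, occurred 3 times in IGF2R and once in IRS1, and in 7.26% of all windows. TATAAA was found in IGFBP4 alone among the members (11.5% of all windows), and TGANTCA in no member (7.71%). These matches describe letters in the windows and were not tied to any value below.

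Per kilobase of exon, which allows genes to be compared, IGFBP4 was the most abundant member in WT1, at 72.5 ± 3.77 CPM per kb (SD, n = 3). IGF2R (26.9 ± 1.31) and IGF1R (26.5 ± 1.17) followed and, with the exon lengths used, did not differ from each other beyond their spread. Those lengths were 14911 and 13509 bases, against 17843 and 13941 in the GENCODE annotation, so the order of these receptors depends on the annotation. IGFBP6 (22.2 ± 1.76) and IGFBP3 (20.8 ± 1.0) were likewise within their spread of each other. IRS1 (11.7 ± 0.749), IRS2 (7.14 ± 0.123) and IGFBP7 (5.63 ± 0.347) were lower. IGFBP5 (1.51 ± 0.163) and IGFBP2 (1.39 ± 0.233) were the least abundant members and overlapped in level, so the largest falls described below occurred in minor transcripts of the family. In the separately normalised control groups of the other tables the leading binding protein was IGFBP3, at 33.9 ± 0.720 CPM per kb in Vector and 28.3 ± 2.25 in siNC.

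IGFBP5 encodes a binding protein that attaches to extracellular matrix, and it was not detected in KO1. Its counts were 540, 459 and 694 in the WT1 libraries and 0 in each of the 3 KO1 libraries. Against a floor of 3 counts per library, IGFBP5 was at least 170.0-fold lower in KO1 than in WT1. Of the 47 tested genes at 0 counts in all KO1 libraries, it had the highest level in WT1, at 9.72 ± 1.1 CPM (SD, n = 3). In the second knockout, which was tested, IGFBP5 was 6.16, 7.29 and 5.02 CPM in the WT2 libraries and 0.928, 1.12 and 0.829 in the KO2 libraries. The groups did not overlap, and the log2 fold change was -2.69 (SE 0.211, edgeR adjusted p = 1.0e-06). The 2 control groups also differed, by -0.66 on the log2 scale for WT2 against WT1, with no overlap between their libraries. That difference was smaller than either knockout's fall.

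IGFBP2, its neighbour on chromosome 2 and a secreted binding protein often raised in carcinomas, was lower in both knockouts as well. It was 7.93, 5.95 and 6.06 CPM in WT1 and 0.589, 0.957 and 0.983 in KO1, a log2 difference of -2.99 (SE 0.243). In WT2 it was 5.26, 7.20 and 5.54 CPM, and in KO2 it was 1.91, 2.29 and 1.95. No KO2 library reached the WT2 range, and the log2 fold change was -1.55 (SE 0.182, edgeR adjusted p = 3.0e-05). IGFBP2 was also low in the separately normalised controls of the other tables, at 0.759 ± 0.152 CPM in Vector and 2.19 ± 0.769 in siNC. Among the 67 other genes tested within 5 Mb of IGFBP5, the median log2 value was -0.03 in KO1 (quartiles -0.66 and 0.14), beside -0.002 over all genes. In KO2 it was 0.06 (quartiles -0.24 and 0.25), beside -0.02 over all genes. Some of these neighbours were thus also lower in KO1, where 24.7% of all genes lay below WT1 without overlap. The part of the region in the values of IGFBP5 and IGFBP2 was not tested. IRS1, 10035791 bases further along the chromosome, was 0.78-fold of WT1 in KO1 (log2 difference -0.35, SE 0.0681), and 103.6 CPM in both WT2 and KO2 (edgeR adjusted p = 0.934).

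IGFBP3, the main carrier of IGFs in blood and a secreted growth inhibitor in many epithelia, went in opposite directions in the 2 knockouts. It was 100.4, 92.2 and 92.5 CPM in WT1 and 21.4, 21.0 and 20.2 in KO1, a log2 difference of -2.19 (SE 0.0603). In WT2 it was 80.1, 80.7 and 81.2 CPM, and in KO2 it was 117.4, 123.9 and 127.0. The KO2 libraries were all above the WT2 libraries, with a log2 fold change of 0.60 (SE 0.0418, edgeR adjusted p = 3.7e-07). IGFBP7, a related protein of low IGF affinity, showed the same split, from 10.9 ± 0.670 CPM in WT1 to 8.10 ± 1.36 in KO1, and from 11.1 ± 0.961 in WT2 to 15.6 ± 1.67 in KO2 (log2 fold change 0.49, SE 0.106, edgeR adjusted p = 0.00282). IGFBP4, a binding protein that restrains IGF action, was split the other way, from 159.4 ± 8.30 CPM in WT1 to 190.4 ± 10.4 in KO1 and from 168.3 ± 8.02 in WT2 to 146.1 ± 6.04 in KO2 (log2 fold change -0.21, SE 0.0451, edgeR adjusted p = 0.00295). IGFBP6, which prefers IGF2 as its ligand, had overlapping groups in each knockout, and its KO2 log2 fold change was 0.05 (SE 0.0640, edgeR adjusted p = 0.607).

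**Figure D1:**
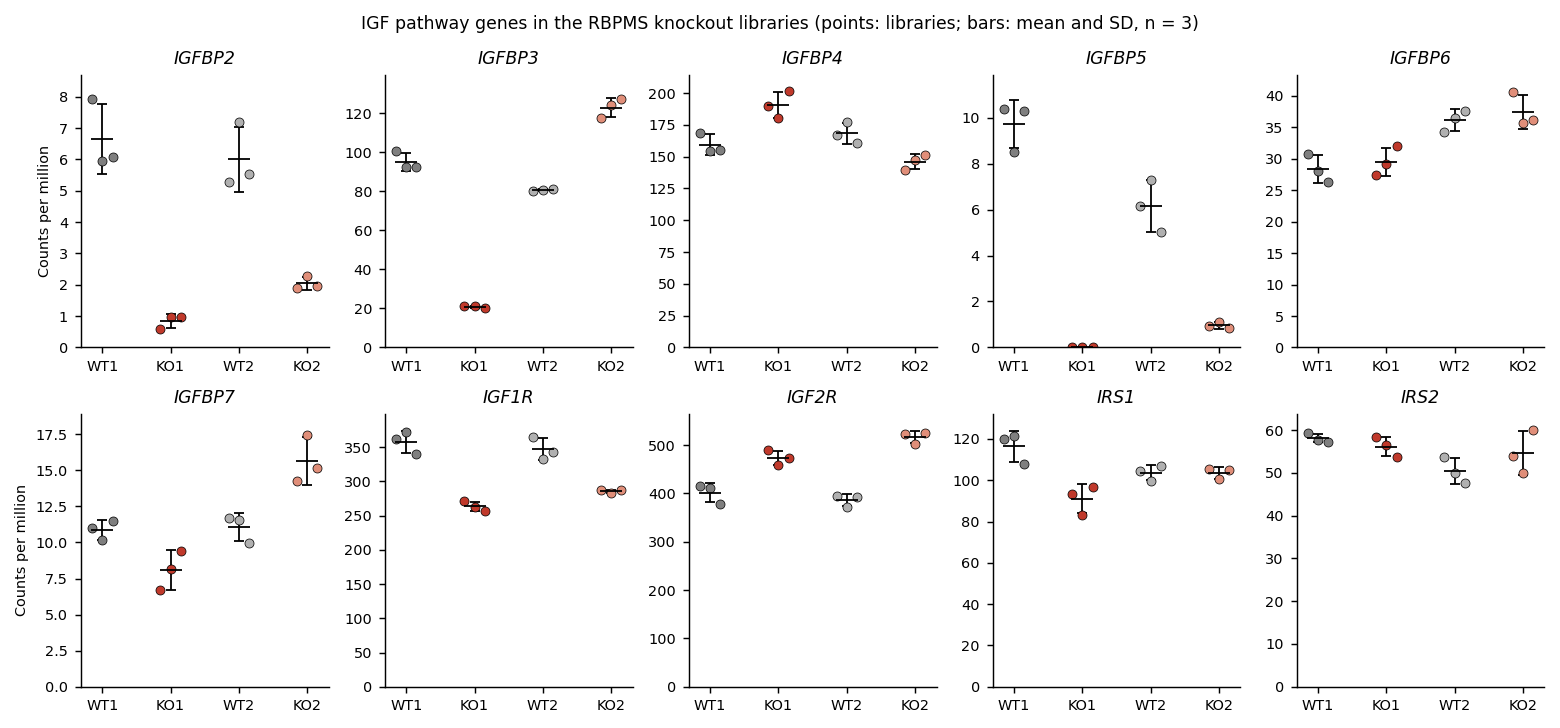
CPM (vertical axes, linear and from 0) of the 10 members in each of the 12 knockout-table libraries, by group (points), with the mean and SD of 3 libraries (bars). IGFBP5 sits at 0 in the 3 KO1 libraries and between 0.829 and 1.12 in the 3 KO2 libraries, while IGFBP3 is near 21 in KO1 and above its controls in KO2.

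Each receptor moved in the same direction in both knockouts. IGF1R was 357.7 ± 15.9 CPM (SD, n = 3) in WT1 and 263.3 ± 7.12 in KO1, and 346.9 ± 16.4 in WT2 and 285.6 ± 2.34 in KO2. Its groups did not overlap in either pair, and the KO2 log2 fold change was -0.29 (SE 0.0372, edgeR adjusted p = 7.3e-05). The 36 other genes tested within 5 Mb of IGF1R were also mostly lower in KO1, with a median log2 value of -0.35 (quartiles -1.115 and -0.063). In KO2 the median of 39 such genes was -0.04 (quartiles -0.42 and 0.09). The part of the region in the IGF1R values was not tested. IGF2R, the receptor that clears IGF2, was higher, from 401.4 ± 19.5 CPM in WT1 to 474.1 ± 14.7 in KO1, and from 386.1 ± 12.5 in WT2 to 516.9 ± 13.1 in KO2 (log2 fold change 0.42, SE 0.0335, edgeR adjusted p = 1.3e-06). IRS2 had overlapping groups in both pairs, with a KO2 log2 fold change of 0.11 (SE 0.0685, edgeR adjusted p = 0.230).

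Of the 10 members, 3 rose (IGFBP3, IGFBP7 and IGF2R) and 4 fell (IGFBP2, IGFBP4, IGFBP5 and IGF1R) in KO2 against WT2. All 7 calls were kept with each library left out in turn. Over all 18267 genes tested in that comparison, 19.3% were called higher and 19.2% lower, and the median log2 fold change was 0.02 over the members and -0.02 over all genes. In KO1 against WT1, 2 members were above and 6 below the WT1 libraries without overlap, beside 24.0% of all genes above and 24.7% below, a count that the choice of members partly fixed. The fibroblast marker sum (COL1A1, COL1A2, DCN, LUM and PDGFRB) was also lower in KO1, at 32.6 to 38.1 CPM against 52.6 to 56.3 in WT1, and at 49.8 to 52.3 in KO2 against 55.1 to 56.2 in WT2. COL1A2 was at or under 3 counts in the KO1, WT2 and KO2 libraries, and smooth muscle markers (MYH11, DES and ACTA2) summed to 2.89 to 4.34 CPM in KO2 against 4.92 to 6.36 in WT2. Leukocyte markers (PTPRC, CD3E and CD68) summed to 0.777 to 1.59 CPM in KO2 against 0.0359 to 0.0892 in WT2, and to 0.251 to 0.981 in KO1 against 0.0741 to 0.249 in WT1, with PTPRC and CD3E at or under 3 counts in all 4 groups. The part of these markers in the members' values was not tested. In bulk RNA, fewer cells expressing a gene and less RNA per cell cannot be told apart.

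By the summed level of the 6 binding proteins per kilobase, KO1 differed little from WT1, at 118.6 ± 6.48 CPM per kb against 124.0 ± 6.79 (SD, n = 3), but the make-up changed. IGFBP4 made up 58.4 ± 0.222% of the sum in WT1 and 73.0 ± 1.18% in KO1, and IGFBP3 made up 16.8 ± 0.0974% and 3.86 ± 0.309%. In KO2 the share of IGFBP4 was 50.6 ± 1.22%, against 58.7 ± 1.11% in WT2, and that of IGFBP3 was 20.5 ± 0.464%, against 13.6 ± 0.451%. The summed level was 131.2 ± 2.28 CPM per kb in KO2 and 130.3 ± 4.26 in WT2. The shares of the groups did not overlap in any of these 4 pairs.

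Over the 12 knockout-table libraries, the genes with a pattern most like that of IGFBP5 (Pearson correlation of log2(CPM + 1), genes with a mean of at least 50 counts) were FLRT2, SLC1A3, NINL, MPPED2 and KCTD1, with r of 0.993, 0.988, 0.988, 0.986 and 0.985. The 12 libraries come from 4 groups, so the correlation mainly describes 4 group levels. The groups include KO1 and WT1, whose values were in view when the members were chosen, so these ranks are a description only. FLRT2, a leucine-rich repeat membrane protein, was 57.7 CPM in WT1, 11.5 in KO1, 47.3 in WT2 and 19.5 in KO2. SLC1A3, a glutamate transporter, was 485.2, 177.5, 462.5 and 248.3 CPM in the same order. IGFBP2 ranked 8 of 13617 genes, with r = 0.984. None of the first 5 genes is on chromosome 2.

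A list of 60 further pathway genes (ligands, other receptors and binding proteins, proteases, adapters, the PI3K-AKT, TOR and FOXO branches, and IGF2 mRNA-binding proteins) was counted in the same fits. In KO2 against WT2, 22 rose and 15 fell of the 54 tested, beside 19.3% and 19.2% of all genes, and their median was 0.12 on the log2 scale. By group, adapters and negative regulators had 7 higher and 3 lower of 11 tested, and proteases and their inhibitors had 4 higher and 1 lower of 7. PI3K-AKT genes had 4 and 3 of 15, TOR genes 4 and 2 of 8, and FOXO and GSK3 genes 3 and 1 of 5. IGF2 mRNA-binding proteins had 0 and 2 of 3, other binding proteins 0 and 1 of 3, and ligands and other receptors 0 and 1 of 1 each. Of the list, 6 genes passed with at least a 2-fold change. IGFBPL1, an IGF-binding protein-like gene, was 13.8, 14.2 and 13.4 CPM in WT2 and 0.321, 0.179 and 0.156 in KO2 (log2 fold change -5.98, SE 0.211, edgeR adjusted p = 1.2e-09). In KO1 it was 15.8, 16.7 and 15.2 CPM, above the 12.8 to 14.4 of WT1, while IGFBP5 was lower in both knockouts. In the controls of the other tables IGFBPL1 was 0.643, 0.643 and 0.413 CPM in Vector and 0 in each siNC library. PAPPA2, a protease that cleaves IGFBP3 and IGFBP5, had 44, 26 and 79 counts in KO2 and 4, 0 and 0 in WT2 (edgeR adjusted p = 5.0e-04). PAPPA2 also had 24, 32 and 36 counts in Vector and 36, 26 and 10 in siNC. GRB10 and SOCS3, which dampen receptor signalling, had log2 fold changes of 1.39 (SE 0.124, edgeR adjusted p = 3.2e-06) and 1.42 (SE 0.252, edgeR adjusted p = 7.4e-04). PIK3R1, the regulatory subunit of PI3-kinase, was 24.6 CPM in KO2 and 52.6 in WT2 (log2 fold change -1.11, SE 0.0567, edgeR adjusted p = 3.0e-08), and 22.9 CPM in KO1 and 45.6 in WT1. INPP5D, a lipid phosphatase, had a KO2 log2 fold change of -1.16 (SE 0.302, edgeR adjusted p = 0.00889) and a KO1 log2 difference of 0.40.

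Among the ligands, named after their values were seen, IGF1 had 0 to 6 counts and INS 0 to 5 counts in every library, while IGF2 was abundant. IGF2 was 531.7 ± 24.6 CPM (SD, n = 3) in WT1 and 328.1 ± 6.44 in KO1, and 571.4 ± 45.2 in WT2 and 422.2 ± 16.7 in KO2 (log2 fold change -0.44, SE 0.0510, edgeR adjusted p = 2.7e-05). The annotated readthrough gene INS-IGF2 overlaps IGF2, so the counting could split reads between them.

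In the overexpression libraries the differences between ANKRD10 cells and Vector were below 1.5-fold for every member. In ANKRD10-2 against Vector, IGFBP6 and IRS2 rose and IGFBP3, IGFBP4 and IRS1 fell, beside 10.7% higher and 9.25% lower of all 20177 genes tested. IGFBP6 was 10.6, 11.6 and 10.0 CPM in Vector and 16.3, 15.5 and 14.0 in ANKRD10-2, without overlap (log2 fold change 0.51, SE 0.0899, edgeR adjusted p = 0.00137). IRS2 was 41.0, 37.0 and 39.9 CPM in Vector and 54.4, 57.3 and 56.4 in ANKRD10-2, again without overlap (log2 fold change 0.51, SE 0.0581, edgeR adjusted p = 3.7e-05). IGFBP3 was 154.8 ± 3.29 CPM (SD, n = 3) in Vector and 122.9 ± 1.69 in ANKRD10-2 (log2 fold change -0.33, SE 0.0451, edgeR adjusted p = 1.7e-04). These 3 calls were kept with any 1 library left out. IGFBP4 (log2 fold change -0.22, SE 0.0714, edgeR adjusted p = 0.0413) and IRS1 (-0.29, SE 0.0934, edgeR adjusted p = 0.0428) each lost the call in 4 of 6 such fits. For IGFBP4 these left out ANKRD10-2 replicate 2 or 3 or Vector replicate 1 or 2 (edgeR adjusted p = 0.0757 to 0.170), and for IRS1 ANKRD10-2 replicate 1 or 2 or Vector replicate 1 or 2 (0.0683 to 0.158).

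In ANKRD10-1 against Vector no member rose, and IGFBP3 and IGF2R fell. The edgeR test called 0 members higher, and 1 higher member (IGFBP6) had an unadjusted p under 0.05. Over all 20457 genes tested, 3.5% were called higher and 2.81% lower. DESeq2 also called 0 members higher and gave no value for IGFBP2 or IGFBP5. IGF2R was 206.4, 223.0 and 205.4 CPM in Vector and 177.6, 183.4 and 185.4 in ANKRD10-1 (log2 fold change -0.22, SE 0.0460, edgeR adjusted p = 0.00806), a call lost without ANKRD10-1 replicate 1 (edgeR adjusted p = 0.0573). IGFBP3 was 139.3 ± 2.12 CPM in ANKRD10-1 (log2 fold change -0.15, SE 0.0427, edgeR adjusted p = 0.0412), and this call was lost with any 1 of the 6 libraries left out (edgeR adjusted p = 0.0758 to 0.131). IGFBP6 was 12.4 ± 0.617 CPM in ANKRD10-1 (log2 fold change 0.21, SE 0.0852, edgeR adjusted p = 0.172), and IRS2 was 41.5 ± 4.4 (log2 fold change 0.08, SE 0.0706, edgeR adjusted p = 0.586). The rare transcripts IGFBP2 and IGFBP5 had 22 to 64 counts in each overexpression library, and their log2 fold changes, from -0.29 to -0.06, had SEs of 0.261 to 0.296.

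Set directly against each other, ANKRD10-2 had higher IGFBP6 and IRS2 and lower IGFBP3 and IRS1 than ANKRD10-1, beside 4.15% higher and 3.1% lower of all 20052 genes tested. IRS2 differed by 0.43 on the log2 scale (SE 0.0684, edgeR adjusted p = 4.2e-04), and this was the 1 call of the 4 that no left-out library ended. IGFBP6 (0.30, SE 0.0847, edgeR adjusted p = 0.0334) lost its call without any 1 ANKRD10-1 library or ANKRD10-2 replicate 1 or 2 (edgeR adjusted p = 0.0523 to 0.137). IGFBP3 (-0.18, SE 0.0493, edgeR adjusted p = 0.0303) lost it without any 1 ANKRD10-1 library or ANKRD10-2 replicate 2 or 3 (0.0670 to 0.137), and IRS1 (-0.32, SE 0.0827, edgeR adjusted p = 0.0201) without any 1 ANKRD10-1 library or ANKRD10-2 replicate 2 (0.0643 to 0.0881). RBPMS was 5.40 ± 0.788 CPM in ANKRD10-2 and 4.50 ± 0.811 in ANKRD10-1 (edgeR adjusted p = 0.306).

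**Figure D2:**
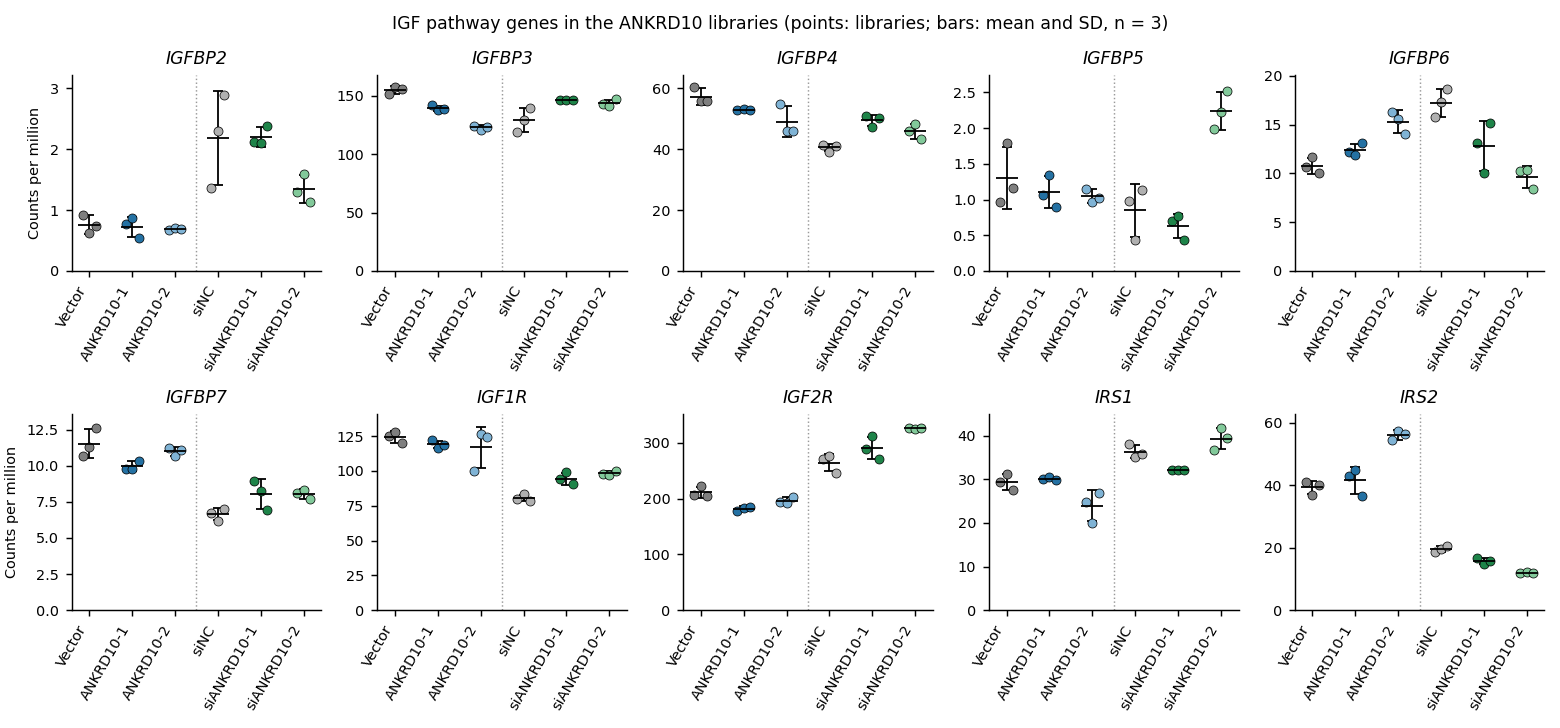
CPM (vertical axes, linear and from 0) of the 10 members in each overexpression library (left of the dotted lines) and knockdown library (right), by group, with the mean and SD of 3 libraries. IGFBP6 and IRS2 are highest in ANKRD10-2 within the overexpression table and lowest in siANKRD10-2 within the knockdown table, and IGFBP5 is raised in siANKRD10-2.

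The knockdown with most member calls was siANKRD10-2. Against siNC, 5 members rose (IGFBP3, IGFBP4, IGFBP5, IGF1R and IGF2R) and 3 fell (IGFBP2, IGFBP6 and IRS2), beside 17.6% higher and 18.7% lower of all 18924 genes tested. IGFBP5 was 0.973, 0.434 and 1.13 CPM in siNC (32, 14 and 36 counts) and 1.98, 2.22 and 2.51 in siANKRD10-2 (58, 64 and 82 counts). The groups did not overlap, and the log2 fold change was 1.40 (SE 0.279, edgeR adjusted p = 2.6e-04). Against siANKRD10-1, where IGFBP5 was 0.697, 0.762 and 0.440 CPM, the log2 difference was 1.83 (SE 0.268, edgeR adjusted p = 1.1e-05). Both calls were kept with any 1 library left out, at levels of at most 2.51 CPM in the knockdown table.

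IRS2, the docking protein of the insulin and IGF1 receptors, was 18.7, 19.6 and 20.6 CPM in siNC, 16.8, 14.6 and 15.7 in siANKRD10-1 and 11.8, 12.2 and 11.9 in siANKRD10-2. The 3 groups did not overlap. The log2 fold change was -0.72 in siANKRD10-2 (SE 0.0820, edgeR adjusted p = 1.3e-07) and -0.32 in siANKRD10-1 (SE 0.0810, edgeR adjusted p = 0.0145), the latter lost without siNC replicate 2 (edgeR adjusted p = 0.0586). IGFBP6 was 15.8, 17.3 and 18.6 CPM in siNC, 13.1, 10.0 and 15.1 in siANKRD10-1 and 10.2, 10.4 and 8.37 in siANKRD10-2. Both siRNA groups lay below siNC and overlapped each other. Its log2 fold change was -0.84 in siANKRD10-2 (SE 0.0978, edgeR adjusted p = 1.7e-07) and -0.43 in siANKRD10-1 (SE 0.115, edgeR adjusted p = 0.0200), the latter lost without siANKRD10-1 replicate 1 or 2 or siNC replicate 2 or 3 (edgeR adjusted p = 0.0578 to 0.0811). The epithelial marker sum moved as well, from 5448 to 5772 CPM in siNC to 4556 to 4892 in siANKRD10-1 and 3404 to 3520 in siANKRD10-2, and from 2942 to 3125 in Vector to 3288 to 3359 in ANKRD10-1 and 3374 to 3779 in ANKRD10-2. The leukocyte sum was 22.0 to 23.8 CPM in Vector, 16.4 to 17.8 in ANKRD10-1 and 17.4 to 18.6 in ANKRD10-2. It was 12.2 to 14.0 in siNC, 13.6 to 14.7 in siANKRD10-1 and 9.11 to 9.85 in siANKRD10-2. CD3E was at or under 3 counts in every group but ANKRD10-2. PTPRC was too in all knockdown groups, where the sum was thus nearly all CD68. The smooth muscle sum was 9.86 to 12.3 CPM in siNC, 8.58 to 9.63 in siANKRD10-1 and 6.94 to 7.54 in siANKRD10-2, and 9.62 to 13.6 in the overexpression groups. The fibroblast sum was 27.9 to 29.7 CPM in siNC, 32.2 to 33.4 in siANKRD10-1 and 32.6 to 34.1 in siANKRD10-2, and 47.5 to 49.6 in Vector, 53.8 to 56.0 in ANKRD10-1 and 48.5 to 57.2 in ANKRD10-2. The part of these markers in the members' values was not tested.

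The 2 receptors rose in siANKRD10-2, IGF1R from 80.6 ± 2.39 CPM (SD, n = 3) to 98.5 ± 1.42 (log2 fold change 0.29, SE 0.0534, edgeR adjusted p = 1.0e-04) and IGF2R from 264.8 ± 15.8 to 326.2 ± 1.72 (0.30, SE 0.0537, edgeR adjusted p = 6.9e-05). Neither group overlapped with siNC. IGFBP3 (0.15, SE 0.0577, edgeR adjusted p = 0.0397), IGFBP4 (0.18, SE 0.0614, edgeR adjusted p = 0.0251) and IGFBP2 (-0.70, SE 0.260, edgeR adjusted p = 0.0358) were nearer the threshold. IGFBP2 was 1.37, 2.30 and 2.89 CPM in siNC and 1.3, 1.60 and 1.14 in siANKRD10-2, with overlap. The IGFBP3 call was lost without any 1 siANKRD10-2 library or siNC replicate 1 or 2 (edgeR adjusted p = 0.0721 to 0.225), the IGFBP4 call without siANKRD10-2 replicate 1 or 2 or siNC replicate 2 (0.0690 to 0.150), and the IGFBP2 call without siANKRD10-2 replicate 1 or 3 or siNC replicate 2 or 3 (0.0911 to 0.234). DESeq2 called neither IGFBP4 nor IGFBP2 (adjusted p = 0.0536 and 0.0971).

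In siANKRD10-1 against siNC, IGFBP4 and IGF1R rose and IGFBP6 and IRS2 fell, beside 5.08% higher and 5.52% lower of all 18785 genes tested. IGFBP4 was 49.6 ± 1.81 CPM (SD, n = 3) against 40.6 ± 1.23 in siNC (log2 fold change 0.29, SE 0.0613, edgeR adjusted p = 0.00505), lost without siNC replicate 2 (edgeR adjusted p = 0.0552). IGF1R was 94.5 ± 4.33 CPM against 80.6 ± 2.39 (0.23, SE 0.0578, edgeR adjusted p = 0.0145), lost without siANKRD10-1 replicate 1 or siNC replicate 1 or 2 (edgeR adjusted p = 0.0530 to 0.0663).

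Set directly against siANKRD10-1, siANKRD10-2 had 3 members higher (IGFBP5, IGF2R and IRS1) and 3 lower (IGFBP2, IGFBP6 and IRS2), beside 18.2% higher and 18.8% lower of all 18832 genes tested. IRS1 was 32.1, 32.2 and 32.2 CPM in siANKRD10-1 and 36.8, 41.7 and 39.6 in siANKRD10-2 (log2 difference 0.29, SE 0.0653, edgeR adjusted p = 0.00104), and IRS2 differed by -0.39 (SE 0.0873, edgeR adjusted p = 0.00114). The 2 substrates differed between the siRNAs in opposite directions. IGF2R (0.17, SE 0.0552, edgeR adjusted p = 0.0181) lost its call without siANKRD10-1 replicate 1 or 3 or siANKRD10-2 replicate 1 or 2 (edgeR adjusted p = 0.0561 to 0.116), IGFBP2 (-0.71, SE 0.223, edgeR adjusted p = 0.0147) without replicate 3 of either group (0.0532 and 0.0697) and under DESeq2 (adjusted p = 0.0530), and IGFBP6 (-0.40, SE 0.12, edgeR adjusted p = 0.0142) without siANKRD10-1 replicate 1 or 3 or siANKRD10-2 replicate 3 (0.0537 to 0.111). Gene-level ANKRD10 was 47.7 ± 2.16 CPM in siANKRD10-1 and 47.4 ± 0.841 in siANKRD10-2 (edgeR adjusted p = 0.985).

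**Figure D3:**
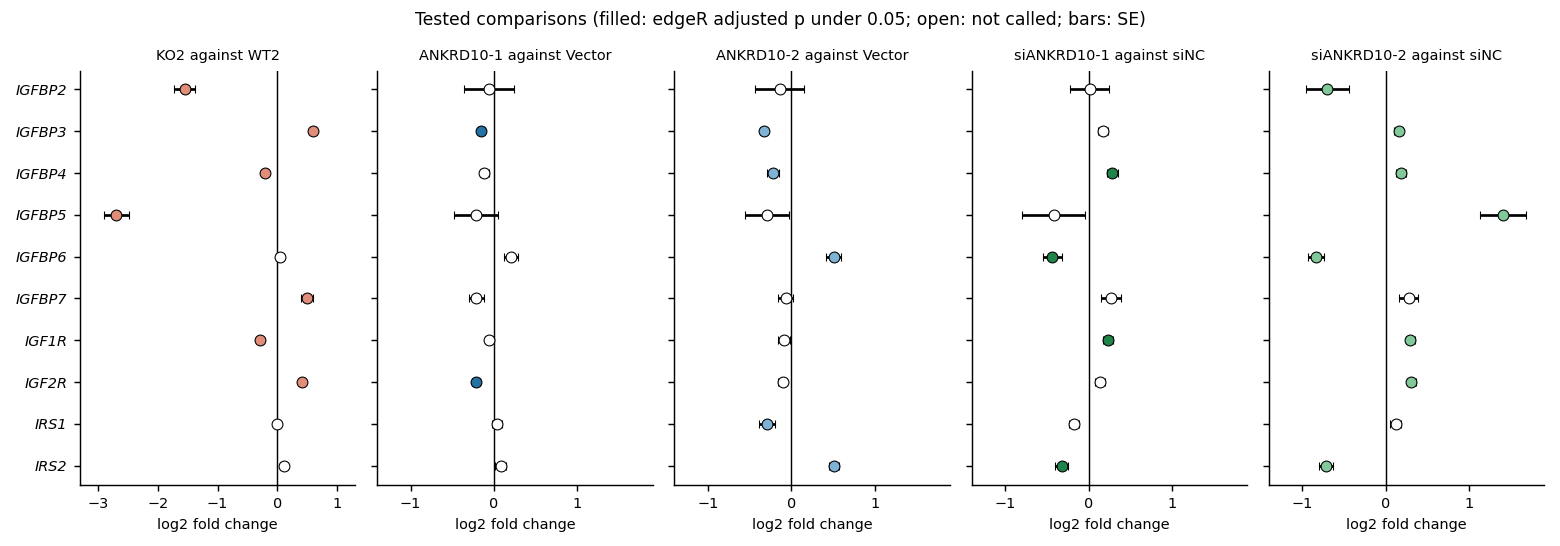
Log2 fold change (horizontal axes) with its SE (bars) for the 10 members in the 5 tested comparisons with a control group, 3 libraries a group, where filled points passed an adjusted p under 0.05. The KO2 panel has a wider axis, reaching -2.69 for IGFBP5, and IGFBP6 and IRS2 lie right of 0 in both ANKRD10 overexpression panels and left of 0 in both siANKRD10 panels.

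The overexpression and knockdown tables share no libraries. Of the 4 members called in both ANKRD10-2 against Vector and siANKRD10-2 against siNC, all 4 (IGFBP3, IGFBP4, IGFBP6 and IRS2) changed in opposite directions. Over all genes, 2015 were called in both, which was 50.2% of the overexpression calls and 29.3% of the knockdown calls, and 65.6% of the 2015 had opposite directions. Of the 4 members, IGFBP6 and IRS2 kept both calls with any 1 library left out. IGFBP3 lost its siANKRD10-2 call in 5 of 6 such fits. IGFBP4 lost its ANKRD10-2 call in 4 of 6, and its siANKRD10-2 call in 3 of 6 and under DESeq2 (adjusted p = 0.0536). Every member call of ANKRD10-1 or siANKRD10-1 named below was lost in at least 1 such fit. For ANKRD10-2 against Vector and siANKRD10-1 against siNC, the 3 members called in both (IGFBP4, IGFBP6 and IRS2) were also opposite, beside 33.9% of the 696 genes called in both (17.3% of the overexpression calls and 35.0% of the knockdown calls). For ANKRD10-1 against Vector, the 2 members also called in siANKRD10-2 (IGFBP3 and IGF2R) were opposite, beside 58.6% of the 688 genes called in both (53.3% and 10.0% of the calls). ANKRD10-1 against Vector and siANKRD10-1 against siNC called different members (IGFBP3 and IGF2R in the first, and IGFBP4, IGFBP6, IGF1R and IRS2 in the second), and 27.1% of the 269 genes called in both were opposite (20.8% and 13.5% of the calls).

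Around the members, 7 genes rose and 9 fell of the 55 tested from the 60-gene list in ANKRD10-2 against Vector, beside 10.7% and 9.25% of all genes, and 8 rose and 12 fell of 52 in siANKRD10-2 against siNC, beside 17.6% and 18.7%. One gene in each passed with at least a 2-fold change. KAZALD1, an IGF-binding protein-related gene, was 0.650 CPM in ANKRD10-2 and 1.44 in Vector (log2 fold change -1.17, SE 0.263, edgeR adjusted p = 0.00685). IGF2 was 2887 ± 228 CPM (SD, n = 3) in siNC and 1264 ± 186 in siANKRD10-2 (log2 fold change -1.19, SE 0.0771, edgeR adjusted p = 6.3e-12). It was 2517 ± 142 in siANKRD10-1 (log2 fold change -0.20, SE 0.0615, edgeR adjusted p = 0.0463). Beside this fall of IGF2, siANKRD10-2 had IGFBP2, IGFBP6 and IRS2 lower and IGFBP3, IGFBP4, IGFBP5, IGF1R and IGF2R higher. A link between these changes was not tested. In ANKRD10-1 against Vector 2 genes of the list rose and 3 fell of 55, beside 3.5% and 2.81% of all genes, and in siANKRD10-1 against siNC 4 rose and 8 fell of 52, beside 5.08% and 5.52%.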

How the data were processed

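RNA-seq of poly(A) stranded libraries gave 3 tables of raw counts per gene, deposited by the authors (12 knockout, 9 overexpression and 9 knockdown libraries) with exon lengths in 2 of them. The submitters' processing notes name Trimmomatic 0.36, featureCounts (Subread 1.5.1) and GRCh38, while the study's methods name HISAT2 and StringTie. Even values, which prevailed in the overexpression and knockdown tables, would arise if both mates of a pair were counted, so counting error there may be understated. All count columns were mapped to samples by name. Exon lengths are those given with the overexpression and knockdown counts (GRCh38). Positions of the members and of the genes in the knockout table are from the GENCODE annotation (GRCh38). Positions of other genes in the overexpression and knockdown tables came with the counts.

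From the counts, edgeR 4.0.16 (R 4.3.3) was run per comparison on its 2 groups only: filterByExpr, TMM, quasi-likelihood test, Benjamini-Hochberg adjustment over all genes tested, threshold 0.05. SE is the log2 fold change divided by the root of the F statistic. CPM used TMM library sizes, within a table. KO1 against WT1 was fitted but not tested. The procedure was tested on simulated data. An exact permutation of 3 against 3 libraries cannot go below p = 0.1, so none was used. No 2 replicates agreed within sampling noise. Alternatives were DESeq2 1.42.0, RLE size factors, no filter, a replicate block, all libraries of a table in 1 fit, both WT groups as controls, a 2-fold rule, each library left out and, added after the data were seen, halved counts.

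The members, the marker lists and the 60-gene list were chosen with earlier results of these data known. One marker gene is not reported here. All 10 members were named in every comparison. Genes of the list were named where the log2 value was 1 or more in size with an adjusted p under 0.05, at most 8 per comparison, and the 5 genes most like IGFBP5 by correlation. Protein sequences were planned and promoters are shown in their place.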

Additional observations from a re-analysis of the deposited data

Results flagged for a closer look

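The members IGFBP3, IGFBP7 and IGFBP4 stood on opposite sides of their own controls in the 2 RBPMS knockouts, with every library of one knockout above and every library of the other below, and the difference between the knockouts was not tested because KO1 was used to choose the members. For IGFBP3 the log2 fold change in KO1 minus that in KO2 was -2.79 (SE 0.0694), from -2.19 and 0.60. For IGFBP7 it was -0.92 (SE 0.174), from -0.43 and 0.49. For IGFBP4 it was 0.46 (SE 0.0748), from 0.26 and -0.21. WT2 minus WT1 was -0.23 for IGFBP3, 0.03 for IGFBP7 and 0.08 for IGFBP4 on the same scale. Guide, clone and control group differ between the pairs and cannot be told apart.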

How the results depend on the processing

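Of the members' values in the tested comparisons, 60 kept direction and side of the threshold under DESeq2 (1 gained and 3 lost a call), 69 under RLE size factors, 68 with all libraries of a table, 10 with both WT groups, 60 with halved counts and 69 with no filter. Under RLE, IRS1 in KO2 turned from -0.01 to 0.00014, and with all libraries IGFBP7 in siANKRD10-2 against siANKRD10-1 turned to -0.00022. Replicate numbers did not pair the libraries (r from -0.077 to 0.166 over 36 pairs, 3 of them over 0.1). With the number as a replicate block, 68 values were unchanged in call, IGFBP3 in siANKRD10-1 gained a call, and 1 member in place of 2 was lower in ANKRD10-1 against Vector, as it was (1) with no filter. With a 2-fold minimum as well, edgeR called 0 members higher and 2 lower in KO2, 0 lower in ANKRD10-1, 0 and 0 in ANKRD10-2, 0 and 0 in siANKRD10-1, 1 and 0 in siANKRD10-2, 0 and 0 in ANKRD10-2 against ANKRD10-1, and 1 and 0 in siANKRD10-2 against siANKRD10-1. Unadjusted counts without that minimum were 3 and 4, 1 and 4, 2 and 3, 5 and 3, 6 and 3, 3 and 2, and 3 and 3 in the same order.

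With each library left out, 341 values were unchanged in call, 59 lost and 2 gained one, and 18 turned sign, all of them uncalled. In KO2, IGFBP6 ran from -0.011 to 0.080 and IRS1 from -0.034 to 0.017. In ANKRD10-1, members lower ran from 0 to 1, IGFBP2 from -0.20 to 0.10, IGFBP5 from -0.39 to 0.061 and IRS1 from -0.0064 to 0.080. In ANKRD10-2, members lower ran from 1 to 3, IGFBP2 from -0.26 to 0.018, IGFBP7 from -0.12 to 0.0074 and IGF1R from -0.14 to 0.018. In siANKRD10-1, members higher ran from 0 to 3, members lower from 0 to 2 (0 and 0 without siNC replicate 2) and IGFBP2 from -0.24 to 0.27. In siANKRD10-2, members higher ran from 3 to 5. In ANKRD10-2 against ANKRD10-1, members higher ran from 1 to 2, members lower from 0 to 3, IGFBP2 from -0.24 to 0.063, IGFBP5 from -0.20 to 0.095 and IGF1R from -0.087 to 0.072. In siANKRD10-2 against siANKRD10-1, members lower ran from 1 to 3 and IGFBP7 from -0.099 to 0.082. The fold bound of IGFBP5 in KO1 was 154.0 to 188.5 with 1 library left out and 138.8 with both WT groups. The causes of these shifts were not tested, and depth limits IGFBP2 and IGFBP5, with 14 to 92 counts per overexpression or knockdown library.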
